A study of Oryza sativa Indica Group with 6 samples.

Results

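The genes encoding AUXIN RESPONSE FACTOR (ARF) proteins and Aux/IAA proteins, the transcription factors and the repressors of the auxin response, were compared between young panicles of the wild type and of the *ssh1* mutant of rice (*Oryza sativa*). A list of 55 locus IDs of the MSU annotation, taken as 25 ARF genes and 30 Aux/IAA genes, was taken from the 55982 locus IDs kept from the RNA-seq tables, and all 55 were found. The list names both families without saying which locus belongs to which, and the split into 25 and 30 was made from its order and from general knowledge of the families, so that every count by family rests on that split. The wild type was YIL100, an introgression line that carries segments of wild rice (*Oryza rufipogon*) in the *indica* variety Teqing. The *ssh1* mutant, labelled SSH1-/-, came from YIL100 after mutagenesis with EMS and carries a point mutation in an intron of *SUPERNUMERARY BRACT* (*SNB*, LOC_Os07g13170), a gene for an APETALA2-like transcription factor. It is a single mutant line, so that in these samples the *SNB* mutation cannot be told apart from other changes that EMS may have left in the line. The study tied the shattering phenotype to *SNB* with complementation, overexpression, and RNA interference lines, none of which is among the samples here. RNA came from developing panicles of 0 to 4 cm with 3 biological replicates per genotype, each a pool of plants, and the 6 samples were given by the authors as 1 FPKM value per gene (read fragments scaled by the length of the gene and by the mapped total of the library).

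Auxin acts on transcription by removing repressors. Aux/IAA proteins bind ARF proteins and hold their target genes down through corepressors of the TOPLESS type. When auxin enters the pocket of an F-box receptor of the TIR1/AFB type, the Aux/IAA protein is bound, marked, and degraded, and the ARF proteins on the promoters are released. Some ARF proteins activate transcription and others repress it, and many Aux/IAA genes are themselves switched on by auxin, so that their transcript levels are often read as a response. In panicles, auxin is known for its part in placing branches and spikelets and in the growth of floral organs. The files give locus IDs with no gene names, the RefSeq gene table at hand matched 0 of the 55, and each gene is therefore called by its locus ID, whose first number is its chromosome. Which ARF genes encode activators is not analysed here.

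*SNB* had 20.9, 16.9, and 18.0 FPKM in the wild-type replicates and 7.97, 7.44, and 8.86 FPKM in *ssh1*, lower in every *ssh1* replicate. By RT-qPCR the study found *SNB* similar in both genotypes upstream of the mutated intron and lower in *ssh1* around it. It attributed the loss to altered splicing, and 1 FPKM value per gene does not show this difference. By the modal ratio of low values to those of wild-type replicate 1, depth ran from -0.24 in *ssh1* replicate 1 to 0.06 in *ssh1* replicate 3 (log2). Only 20.1% to 23.7% of the low values lay at the mode, and large differences were outside the range searched. The number of reads per library is unknown. At an adjusted p below 0.05 in limma, 28.0% of all tested genes were lower in *ssh1* and 17.0% higher, and the counts of marker genes are given beside these shares. Of 6 genes known for inflorescence and floral meristems, all passed 1 FPKM, and 3 were lower and 1 higher in *ssh1*, and 1 to 3 were lower when 1 replicate was left out and 2 after median-of-ratios scaling (each sample divided by its typical ratio to the others), with a summed level of 746 to 797 FPKM in the wild type and 541 to 652 FPKM in *ssh1*. Of 4 leaf photosynthesis genes, 2 were higher in *ssh1*, and the summed level was 192 to 291 FPKM in the wild type and 221 to 523 FPKM in *ssh1*. The 5 genes of the anther tapetum, a later tissue, summed to 6.95 to 8.48 FPKM in the wild type and 3.88 to 5.69 FPKM in *ssh1*, 1 of them was listed at 0 in all 6 samples, and of the 2 tested neither passed an adjusted p below 0.05 in limma (1 had an unadjusted p below 0.05). The part of these markers in the results below was not tested. In panicle tissue taken whole, fewer cells of a type and less RNA per cell cannot be told apart.

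The comparison was made with limma, which fits a linear model to each gene and moderates its variance with the help of the others, on log2(FPKM + 1). It covered the 18537 genes whose mean over the samples reached 1 FPKM, and the Benjamini-Hochberg adjustment was taken over all of these. The added 1 FPKM understates changes of weakly expressed genes. In 23 of the 25 ARF genes and 24 of the 30 Aux/IAA genes the mean reached 1 FPKM. The log2 fold change (*ssh1* over wild type) had a median of -0.14 over all tested genes, and a change is to be read against this shift. A gene is called higher or lower below at an adjusted p below 0.05, and the thresholds of the study, a fold change of at least 2 with an adjusted p below 0.001, are given beside it.

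Most ARF genes were well expressed in young panicles. The mean over the 6 samples ran from 3.97 FPKM in LOC_Os04g43910 to 373 FPKM in LOC_Os11g32110, with a median of 44.8 FPKM against 11.7 FPKM for all tested genes, and 20 of the 23 had at least 10 FPKM. LOC_Os11g32110, LOC_Os01g70270, and LOC_Os12g29520 stood highest and together held 44.5% to 47.9% of the summed ARF level in the wild-type replicates and 56.4% to 59.9% in those of *ssh1*. The 2 ARF genes that were not tested were at the other end. LOC_Os07g08520 was listed at 0 in all samples, and LOC_Os04g59430, the gene just below the limit of 1 FPKM, did not exceed 0.302 FPKM in any sample. Just above the limit was LOC_Os04g43910.

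**Figure D1:**
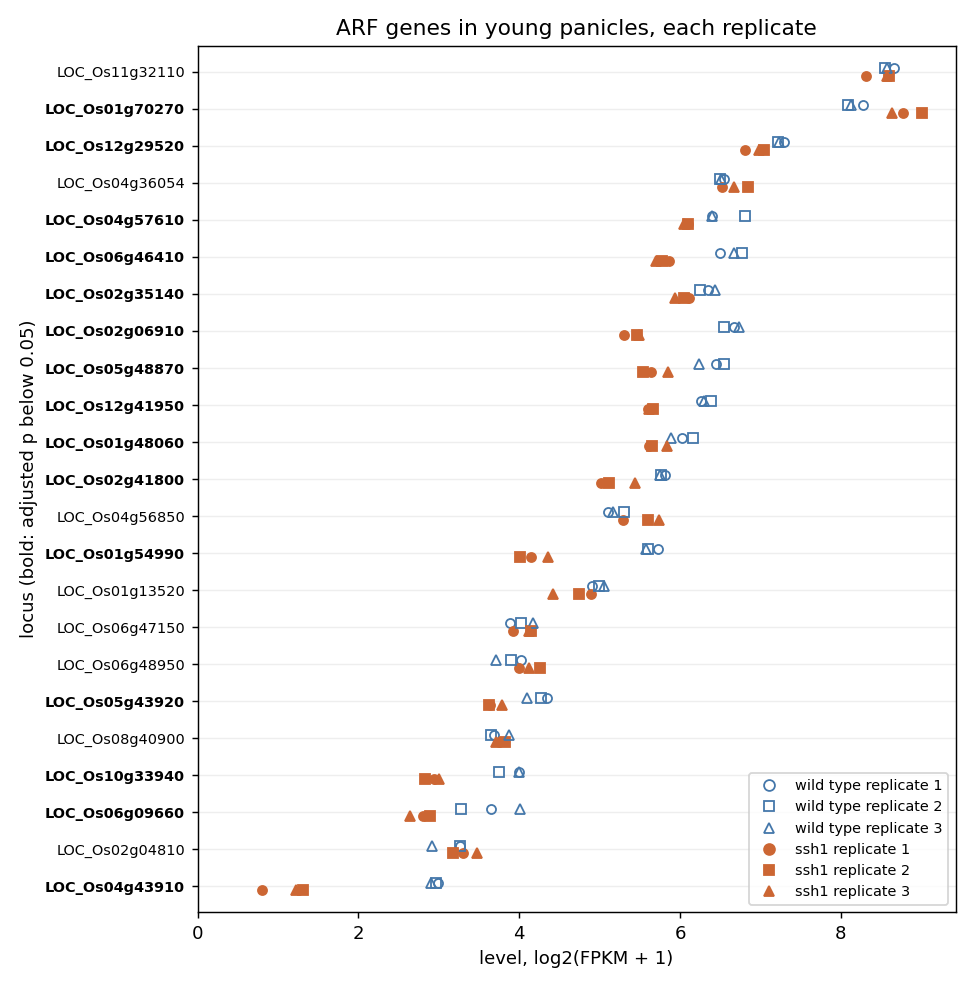
Level of the 23 tested ARF genes in each replicate, as log2(FPKM + 1) on the horizontal axis, with open blue symbols for the wild type and filled orange symbols for *ssh1*, 1 row per locus in the order of the mean level. In LOC_Os04g43910, LOC_Os01g54990, and LOC_Os02g06910 the *ssh1* replicates lie far to the left of the wild type, bold type marks an adjusted p below 0.05, and LOC_Os01g70270 is the one gene in bold whose *ssh1* replicates lie to the right.

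The ARF genes that changed fell in *ssh1*, with 1 exception. Of the 23 tested, 14 were lower, 1 was higher, and 8 were not called, where 28.0% of all tested genes were lower and 17.0% higher. After median-of-ratios scaling, which moved the median of all genes to -0.01 and their shares to 19.2% lower and 21.7% higher, 10 ARF genes were lower and 3 higher. The median log2 fold change of the 23 was -0.33 beside -0.14 for all tested genes, and -0.19 beside -0.01 after the scaling. In 15 of the 23 every *ssh1* replicate was below every wild-type replicate and in 1 every one was above, against 38.0% and 21.7% of all tested genes. The thresholds of the study were passed by 3, all lower in *ssh1*, where 1.92% of all tested genes were lower and 3.19% higher at these thresholds. The members were listed with results of these data known, so that these counts describe the family and are not a test of it.

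The largest fall of the family was that of LOC_Os04g43910, the ARF gene with the lowest level among those tested. It had 6.94, 6.84, and 6.50 FPKM in the wild-type replicates and 0.743, 1.47, and 1.33 FPKM in *ssh1*. The wild-type replicates were nearly alike, and every *ssh1* replicate was far below them, for a ratio of the means of 0.175. The log2 fold change was -1.85 with a standard error of 0.16 (adjusted p = 0.00048).

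LOC_Os01g54990 had 51.8, 47.4, and 46.9 FPKM in the wild type and 16.6, 15.2, and 19.5 FPKM in *ssh1*. The genotypes did not overlap, and the mean in *ssh1* was 0.351 of that in the wild type (log2 fold change -1.46, standard error 0.10, adjusted p = 0.000292). LOC_Os02g06910 had 101, 92.9, and 106 FPKM in the wild type and 38.4, 43.3, and 44.0 FPKM in *ssh1*. As the ARF gene with the fourth highest level in the wild type and the twelfth in *ssh1*, it lost the most places in the order of the family (log2 fold change -1.23, standard error 0.08, adjusted p = 0.000245). These 3 genes passed the thresholds of the study. When 1 wild-type replicate was left out, whichever it was, none of the 3 had an adjusted p below 0.001 in limma (0.00181 to 0.00485), while their unadjusted p stayed below 0.05, and without *ssh1* replicate 1 or replicate 3 the count was 2.

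A further group fell by close to one log2 unit. LOC_Os10g33940 had 14.9, 12.4, and 15.0 FPKM in the wild type and 6.65, 6.10, and 7.0 FPKM in *ssh1*, and the log2 fold change was -0.99 with a standard error of 0.10 (adjusted p = 0.000916). With a pseudocount of 0.1 it was -1.08 (adjusted p = 0.00089 in limma), past the thresholds of the study. LOC_Os06g09660 had 11.6, 8.67, and 15.1 FPKM in the wild type and 5.95, 6.40, and 5.22 FPKM in *ssh1*, and the log2 fold change was -0.87 with a standard error of 0.19 (adjusted p = 0.0132). Here the spread was in the wild type, whose lowest replicate was still above the highest of *ssh1*. LOC_Os06g46410, at a much higher level, had 89.4, 108, and 101 FPKM in the wild type and 57.1, 54.0, and 50.9 FPKM in *ssh1*, and the log2 fold change was -0.87 with a standard error of 0.09 (adjusted p = 0.0009). In each of the 6 falls described, the genotypes did not overlap.

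The other 8 ARF genes that were lower in *ssh1* had smaller changes. The third most highly expressed, LOC_Os12g29520, had 155, 148, and 150 FPKM in the wild type and 111, 131, and 126 FPKM in *ssh1*, and the log2 fold change was -0.30 with a standard error of 0.08 (adjusted p = 0.024). The remaining 7 were LOC_Os05g48870, LOC_Os12g41950, LOC_Os02g41800, LOC_Os05g43920, LOC_Os04g57610, LOC_Os01g48060, and LOC_Os02g35140, with log2 fold changes from -0.73 to -0.31 and ratios of the means from 0.598 to 0.804. Among them LOC_Os12g41950 had the lowest adjusted p (0.000561), with close replicates of 75.6, 82.8, and 77.6 FPKM in the wild type and 47.5, 49.5, and 48.1 FPKM in *ssh1*. In this group 4 calls were not firm, those of LOC_Os12g29520, LOC_Os01g48060, LOC_Os02g35140, and LOC_Os04g57610, which were lost after median-of-ratios scaling (log2 fold changes -0.16, -0.19, -0.17, and -0.31). LOC_Os12g29520 was also lost without wild-type replicate 1, 2, or 3 (adjusted p = 0.0862, 0.0625, and 0.0697) and after quantile normalization (adjusted p = 0.0511). LOC_Os01g48060 was lost without wild-type replicate 1 or 2 or *ssh1* replicate 1 or 2 (adjusted p = 0.103, 0.114, 0.0991, and 0.0788) and without the filter on low values (adjusted p = 0.055). LOC_Os02g35140 was lost without wild-type replicate 1 or 3 (adjusted p = 0.0715 and 0.0744), and LOC_Os04g57610 without *ssh1* replicate 1 or 3 (adjusted p = 0.0615 and 0.0619). The other 10 falls kept their call in each of the 6 fits that left out 1 replicate.

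LOC_Os01g70270 was the ARF gene that rose. It had 308, 271, and 278 FPKM in the wild type and 437, 516, and 398 FPKM in *ssh1*, so that the genotypes did not overlap. The log2 fold change was 0.65 with a standard error of 0.11 (adjusted p = 0.00572), and it was 0.79 after median-of-ratios scaling. The ARF gene of highest mean level, LOC_Os11g32110, had 405, 373, and 381 FPKM in the wild type and 316, 385, and 380 FPKM in *ssh1*, which overlapped (log2 fold change -0.11, standard error 0.10, adjusted p = 0.406, and 0.03 after median-of-ratios scaling). The order of this pair was thus turned around. LOC_Os01g70270 had 0.761, 0.725, and 0.732 times the level of LOC_Os11g32110 in the wild-type replicates and 1.38, 1.34, and 1.05 times its level in *ssh1*, a ratio within each sample that no scaling between samples can change. The mean ratio of the wild type was 0.739 ± 0.0192 (SD, n = 3) and that of *ssh1* 1.26 ± 0.183 (SD, n = 3). An exact permutation test on the log2 ratio gave p = 0.1, the smallest that 3 against 3 samples can give. As this pair was chosen after its values had been seen, that test is not support for the change. LOC_Os01g70270 made up 16.0% of the summed ARF level in the wild type and 27.9% in *ssh1* on average.

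The 7 remaining ARF genes were not called, with log2 fold changes from -0.30 in LOC_Os01g13520 to 0.35 in LOC_Os04g56850. LOC_Os01g13520 had 28.9, 30.9, and 32.2 FPKM in the wild type and 28.8, 25.7, and 20.3 FPKM in *ssh1*, so that its genotypes came within a narrow margin of overlapping and its *ssh1* replicates were spread widely. LOC_Os04g56850 had 33.5, 38.4, and 34.8 FPKM in the wild type and 38.1, 47.5, and 52.2 FPKM in *ssh1*. After median-of-ratios scaling LOC_Os04g56850 and LOC_Os06g48950 were called higher (log2 fold changes 0.49 and 0.38, adjusted p = 0.0251 and 0.046), and without *ssh1* replicate 1 LOC_Os04g56850 was called higher and LOC_Os01g13520 lower (adjusted p = 0.0144 and 0.0484). The smallest differences were those of LOC_Os08g40900 and LOC_Os06g47150, whose log2 fold changes were 0.03 (standard error 0.09) and 0.04 (standard error 0.10).

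**Figure D2:**
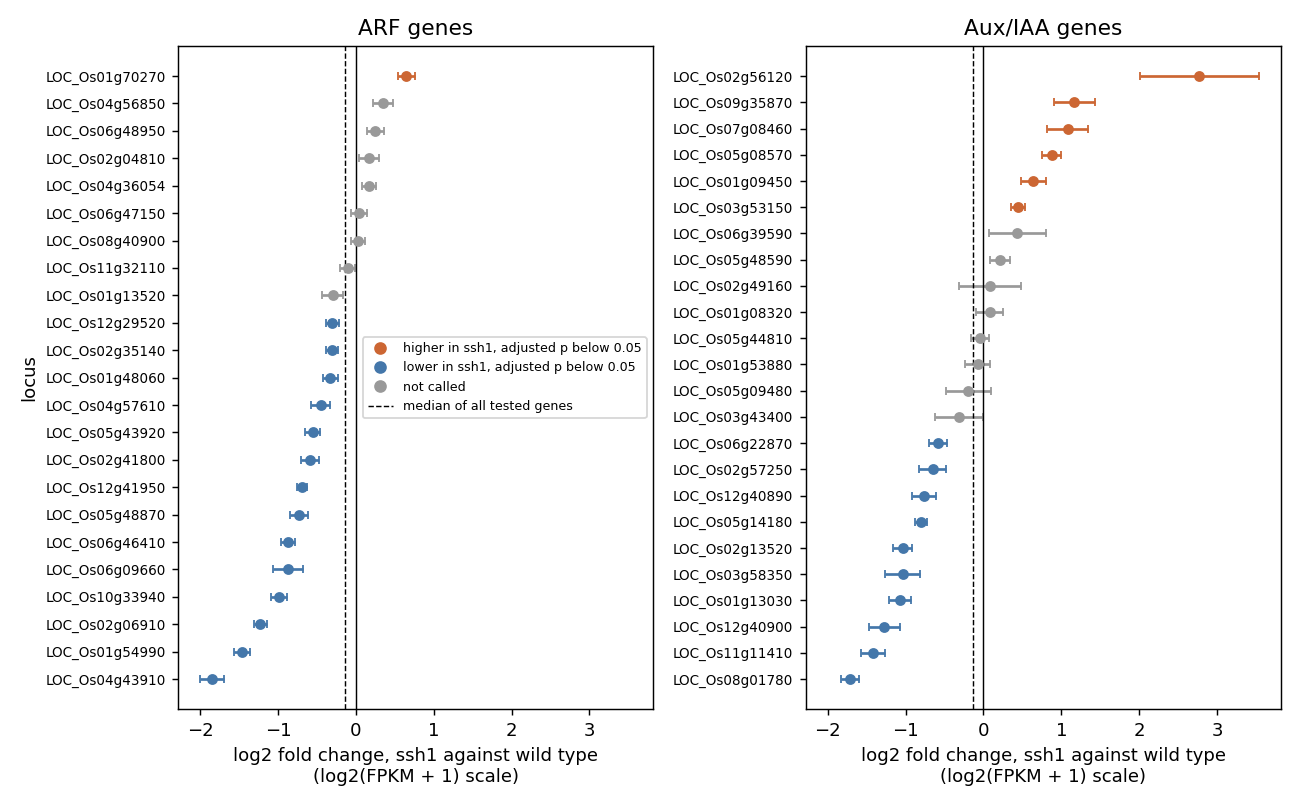
Log2 fold change (*ssh1* over wild type) on the log2(FPKM + 1) scale for the 23 tested ARF genes (left) and the 24 tested Aux/IAA genes (right), with bars of 1 standard error from limma, a solid line at 0, and a dashed line at the median of all tested genes (-0.14). Blue points (14 on the left, 10 on the right) were lower and orange points (1 on the left, 6 on the right) higher at an adjusted p below 0.05.

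Levels of the Aux/IAA genes were spread more widely. The mean ran from 1.09 FPKM in LOC_Os02g49160 to 264 FPKM in LOC_Os05g14180, with a median of 13.0 FPKM, and 13 of the 24 tested genes had at least 10 FPKM. The genes with the highest mean, LOC_Os05g14180, LOC_Os01g13030, and LOC_Os06g22870, held 60.8% to 64.5% of the summed Aux/IAA level in the wild-type replicates and 45.4% to 49.8% in those of *ssh1*. The limit of 1 FPKM passed between LOC_Os02g49160, with 0.539, 0.605, and 1.89 FPKM in the wild type and 2.36, 0.731, and 0.440 FPKM in *ssh1*, and LOC_Os03g43410, with 0.807, 0.528, and 1.20 FPKM in the wild type and 1.51, 0.994, and 0.513 FPKM in *ssh1*. Neither gene parted the genotypes. The other members that were not tested were LOC_Os01g18360, LOC_Os06g07040, LOC_Os06g24850, LOC_Os11g11420, and LOC_Os11g11430, of which the last 2 were listed at 0 in all samples.

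**Figure D3:**
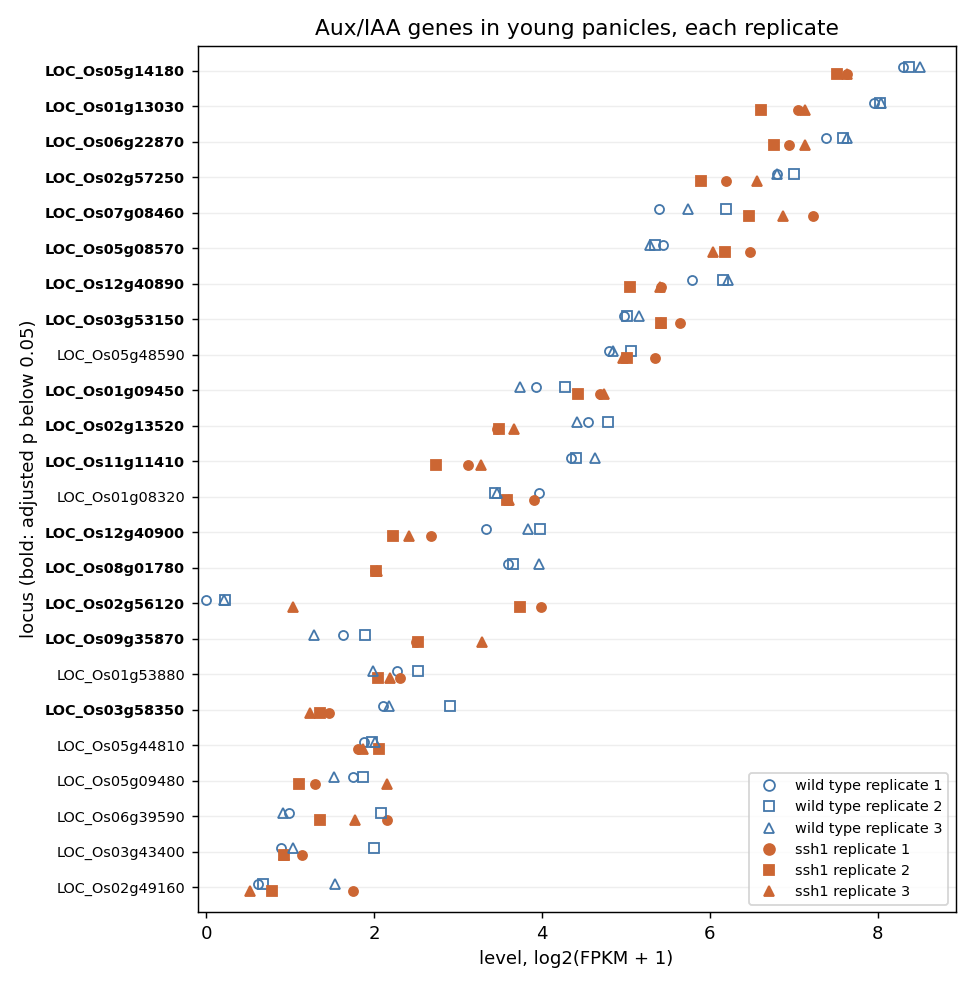
Level of the 24 tested Aux/IAA genes in each replicate, as log2(FPKM + 1) on the horizontal axis, with open blue symbols for the wild type and filled orange symbols for *ssh1*, 1 row per locus in the order of the mean level. The *ssh1* replicates lie to the left in the upper 4 genes and in LOC_Os08g01780 and to the right in LOC_Os07g08460 and LOC_Os05g08570, and those of LOC_Os02g56120 are far apart, with replicate 3 at 1.05 FPKM and the others above 12 FPKM.

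Aux/IAA genes moved in both directions. Of the 24 tested, 10 were lower in *ssh1*, 6 were higher, and 8 were not called, and these counts were the same after median-of-ratios scaling and after quantile normalization. Among all tested genes 28.0% were lower and 17.0% higher, 19.2% and 21.7% after median-of-ratios scaling, and 23.9% and 17.4% after quantile normalization. The 6 rises were 25% of the tested Aux/IAA genes, near the share of all genes after median-of-ratios scaling. They include LOC_Os02g56120, which was let into the test by its level in *ssh1* alone. The changes ran from -1.71 to 2.77, the latter in that gene. Their median, -0.14 beside -0.14 for all tested genes, depended on which genes were let in, and with a minimum mean of 5 FPKM it was -0.65 over 15 genes beside -0.12. In 10 genes the *ssh1* replicates were all below the wild type and in 6 all above, near the 38.0% and 21.7% of all tested genes, and these were the genes called. Without wild-type replicate 1 or 3 the called rises were 3, where 12.3% and 12.9% of all tested genes were higher.

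The largest fall, and the only change past the thresholds of the study, was that of LOC_Os08g01780. It had 11.1, 11.6, and 14.6 FPKM in the wild type and 3.04, 3.08, and 3.08 FPKM in *ssh1*, with *ssh1* replicates that were almost identical. The mean in *ssh1* was 0.247 of that in the wild type (log2 fold change -1.71, standard error 0.12, adjusted p = 0.000268). Its adjusted p was above 0.001 when wild-type replicate 1, 2, or 3 was left out (0.00152 to 0.00243), and also without *ssh1* replicate 1 (0.00159) or replicate 3 (0.00107). In these fits 16 or 17 of the tested Aux/IAA genes had an unadjusted p below 0.05 in limma.

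LOC_Os11g11410 had 19.4, 20.2, and 23.9 FPKM in the wild type and 7.71, 5.69, and 8.67 FPKM in *ssh1* (log2 fold change -1.42, standard error 0.16, adjusted p = 0.00116). LOC_Os11g11410 is the first of 3 consecutive locus IDs on chromosome 11, and the others, LOC_Os11g11420 and LOC_Os11g11430, were those listed at 0. LOC_Os12g40900 had 9.07, 14.7, and 13.2 FPKM in the wild type and 5.39, 3.67, and 4.34 FPKM in *ssh1* (log2 fold change -1.27, standard error 0.20, adjusted p = 0.00392). Its neighbour by locus ID, LOC_Os12g40890, stood higher, with 54.0, 70.4, and 73.3 FPKM in the wild type and 41.8, 32.1, and 41.5 FPKM in *ssh1*. Both members of the pair on chromosome 12 were thus lower in *ssh1*, the second with a log2 fold change of -0.76 with a standard error of 0.16 (adjusted p = 0.0099). In the third run of consecutive locus IDs, on chromosome 3, LOC_Os03g43400 was not called (log2 fold change -0.31, adjusted p = 0.435) and LOC_Os03g43410 was not tested. Whether reads were shared between similar members was not tested.

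The 3 most highly expressed Aux/IAA genes were all lower in *ssh1*. LOC_Os05g14180 had 315, 330, and 361 FPKM in the wild type and 198, 182, and 197 FPKM in *ssh1*, and the log2 fold change was -0.80 with a standard error of 0.08 (adjusted p = 0.00074). LOC_Os01g13030 had 248, 259, and 261 FPKM in the wild type and 131, 96.9, and 139 FPKM in *ssh1*, and the log2 fold change was -1.07 with a standard error of 0.14 (adjusted p = 0.002). LOC_Os06g22870 had 166, 191, and 197 FPKM in the wild type and 122, 108, and 140 FPKM in *ssh1*, and the log2 fold change was -0.59 with a standard error of 0.12 (adjusted p = 0.00909). In all 3 genes *ssh1* replicate 2 was the lowest sample. At lower levels, LOC_Os02g13520 went from 22.3, 26.5, and 20.4 FPKM in the wild type to 10.1, 10.2, and 11.7 FPKM in *ssh1* (log2 fold change -1.04, standard error 0.12, adjusted p = 0.00118). LOC_Os03g58350 had 3.30, 6.46, and 3.53 FPKM in the wild type and 1.76, 1.57, and 1.36 FPKM in *ssh1* (log2 fold change -1.04, standard error 0.23, adjusted p = 0.0132). Its wild-type replicate 2 stood apart from the others, and without it the log2 fold change was -0.79 (adjusted p = 0.0154). The last of the 10 falls, LOC_Os02g57250, had 111, 127, and 111 FPKM in the wild type and 72.0, 58.4, and 93.7 FPKM in *ssh1* (log2 fold change -0.65, standard error 0.17, adjusted p = 0.0242), and its call was lost without wild-type replicate 1, 2, or 3 or *ssh1* replicate 1 (adjusted p = 0.0643, 0.0819, 0.0615, and 0.0623).

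Among the 6 rises, LOC_Os02g56120 was nearly absent from the wild type. It was listed at 0 in wild-type replicate 1, had 0.165 and 0.164 FPKM in replicates 2 and 3, and reached 14.9, 12.3, and 1.05 FPKM in *ssh1*. Every *ssh1* replicate was above every wild-type replicate, but replicate 3 was lower than the other *ssh1* replicates by more than 10 FPKM. The log2 fold change was 2.77 with a standard error of 0.77 (adjusted p = 0.028), a size set by the added 1 FPKM, and it was 4.97 with a pseudocount of 0.1. Of all tested members this is the one whose mean reached 1 FPKM in a single genotype (0.11 FPKM in the wild type and 9.41 FPKM in *ssh1*), so that it was let into the test by its level in *ssh1* and its call is not support for a rise. Without *ssh1* replicate 3 it was 3.71 (adjusted p = 0.000199), past the thresholds of the study, and when any other replicate was left out the call was lost, with adjusted p-values of 0.0861, 0.0757, and 0.0755 without wild-type replicates 1, 2, and 3 and 0.0716 and 0.0654 without *ssh1* replicates 1 and 2. It was also lost when all genes above 0 were tested (adjusted p = 0.0521).

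LOC_Os09g35870 had 2.10, 2.72, and 1.44 FPKM in the wild type and 4.67, 4.77, and 8.77 FPKM in *ssh1*, and the log2 fold change was 1.17 with a standard error of 0.26 (adjusted p = 0.0143). In this gene *ssh1* replicate 3 was the highest, the opposite of LOC_Os02g56120. LOC_Os07g08460 had 40.9, 72.3, and 52.5 FPKM in the wild type and 149, 87.4, and 116 FPKM in *ssh1*, and the log2 fold change was 1.08 with a standard error of 0.26 (adjusted p = 0.018). With the rise it passed from the sixth to the fourth highest level of the family. The replicates of both genotypes were spread widely, and the call was lost without wild-type replicate 1 or 3 (adjusted p = 0.0583 and 0.0595).

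The other 3 rises were smaller, with smaller standard errors. LOC_Os05g08570 had 42.3, 39.7, and 38.0 FPKM in the wild type and 87.9, 71.7, and 64.6 FPKM in *ssh1*, and the log2 fold change was 0.87 with a standard error of 0.12 (adjusted p = 0.00242). LOC_Os03g53150 had 30.5, 31.2, and 34.5 FPKM in the wild type and 49.0, 41.8, and 41.7 FPKM in *ssh1*, and the log2 fold change was 0.45 with a standard error of 0.09 (adjusted p = 0.00967). In both genes *ssh1* replicate 1 was the highest sample. LOC_Os01g09450 had 14.2, 18.4, and 12.4 FPKM in the wild type and 24.9, 20.5, and 25.7 FPKM in *ssh1* (log2 fold change 0.64, standard error 0.16, adjusted p = 0.0197). Its call was lost without wild-type replicate 1 or 3 or *ssh1* replicate 1 or 3 (adjusted p = 0.07, 0.0591, 0.0567, and 0.0522), whereas those of LOC_Os05g08570, LOC_Os03g53150, and LOC_Os09g35870 held in each fit that left out 1 replicate. The 8 Aux/IAA genes that were not called had log2 fold changes from -0.31 to 0.43 and included LOC_Os05g48590, with 26.8, 32.3, and 27.7 FPKM in the wild type and 39.7, 31.3, and 30.3 FPKM in *ssh1*, and LOC_Os01g08320, with 9.83 to 14.6 FPKM in the wild type and 11.0 to 14.0 FPKM in *ssh1*. In both the genotypes overlapped, and in 5 of the other 6 the mean was below 3 FPKM.

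Summed over the family, Aux/IAA transcripts were lower in *ssh1*. The sums were 1143, 1283, and 1268 FPKM in the wild type and 994, 794, and 955 FPKM in *ssh1*, or 1231 ± 76.7 and 915 ± 106 FPKM (SD, n = 3 each), with every *ssh1* replicate below every wild-type replicate. After median-of-ratios scaling they were 1170 ± 72.3 and 956 ± 83.8, still apart. Of these sums LOC_Os05g14180, LOC_Os01g13030, and LOC_Os06g22870, all lower in *ssh1*, held 60.8% to 64.5% in the wild type and 45.4% to 49.8% in *ssh1*. What the other Aux/IAA genes left of each sum overlapped between the genotypes. The lower sum is thus that of these 3 genes, and a fall across the family cannot be read from it. The ARF sums were closer, with 1812, 1780, and 1753 FPKM in the wild type and 1520, 1724, and 1602 FPKM in *ssh1*, or 1781 ± 29.4 and 1615 ± 103 FPKM (SD, n = 3 each). After that scaling they were 1693 ± 25.3 and 1694 ± 160 and overlapped. LOC_Os11g32110 and LOC_Os01g70270, the latter the 1 ARF gene called higher, were also left out of the unscaled ARF sums. These were then 1109 ± 22.9 FPKM in the wild type and 805 ± 32.6 FPKM in *ssh1* (SD, n = 3 each), a ratio of 0.725. The whole unscaled ARF sum had a ratio of 0.907. LOC_Os01g70270 was left out with its rise known, so that the lower ratio follows from that choice. The reduced sums are given without median-of-ratios scaling, after which the whole ARF sums overlapped. A fall across the ARF family cannot be read from the ratio of 0.725. The whole Aux/IAA sum had a ratio of 0.743, but its highest genes were not left out, so that these ratios do not measure the same thing. The ratio of the ARF sum to the Aux/IAA sum within a sample was 1.58, 1.39, and 1.38 in the wild type and 1.53, 2.17, and 1.68 in *ssh1*, which overlapped. No test was run on sums over the members.

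**Figure D4:**
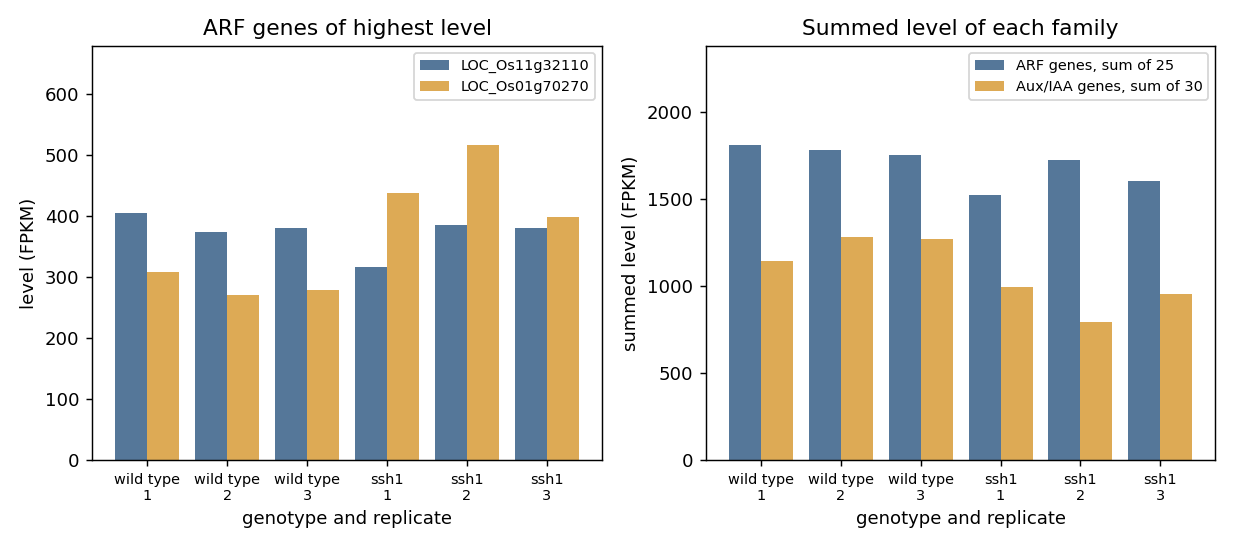
Left, level in FPKM of LOC_Os11g32110 (blue) and LOC_Os01g70270 (yellow), the ARF genes of highest level, in each of the 6 samples, and right, the FPKM summed over the 25 ARF genes (blue) and over the 30 Aux/IAA genes (yellow), with 1 bar per replicate and both axes from 0. LOC_Os01g70270 is the lower bar in each wild-type replicate and the higher bar in each *ssh1* replicate, and the Aux/IAA sum lies between 1143 and 1283 FPKM in the wild type and between 794 and 994 FPKM in *ssh1*.

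The *ssh1* replicates did not rank alike for all members. By the difference from the wild-type mean on the log2(FPKM + 1) scale, *ssh1* replicate 3 was the closest to the wild type in 12 of the 24 tested Aux/IAA genes, replicate 1 in 8, and replicate 2 in 4. For the 23 ARF genes the counts were 9, 8, and 6. The median difference over the ARF genes was -0.43, -0.38, and -0.41 in *ssh1* replicates 1, 2, and 3, so that the replicates agreed within 0.06 on it. For the Aux/IAA genes it was -0.16, -0.29, and -0.19. The SD relative to the mean had a median over the ARF genes of 7.16% for the wild type and 9.51% for *ssh1*. Over the Aux/IAA genes these medians were 16.6% and 15.6%, beside 8.26% and 13.0% over all tested genes.

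Other steps of the auxin pathway were read from lists of loci placed by general knowledge of the pathway and reported as counts, to be read beside the 28.0% of all tested genes that were lower and the 17.0% that were higher (19.2% and 21.7% after median-of-ratios scaling). All 5 loci for F-box receptors of the TIR1/AFB type were expressed, and 3 were higher and 2 lower in *ssh1* at an adjusted p below 0.05, with log2 fold changes from -0.69 to 0.81. The 3 rises were called under every alternative. Of the 2 falls, 1 was lost after median-of-ratios scaling, with the replicate number as a block, and without wild-type replicate 1 or 2 or *ssh1* replicate 1. Their summed level was 265 to 279 FPKM in the wild type and 343 to 367 FPKM in *ssh1*. Of 3 corepressor loci of the TOPLESS type, 1 was lower (log2 fold change -0.87) and 2 were not called, of which 1 was called higher after median-of-ratios scaling. The summed level was 313 to 321 FPKM in the wild type and 245 to 298 FPKM in *ssh1*. Loci for auxin synthesis, of the TAA and YUCCA types, were weakly expressed. Of 10, 5 were tested and 3 of these were lower, 2 of them past the thresholds of the study, while the other 2 had negative log2 fold changes without a call. LOC_Os01g45760, past those thresholds, had a mean of 3.66 FPKM in the wild type and 0.773 FPKM in *ssh1*. LOC_Os12g32750, not called, had 1.40 and 0.702 FPKM. Both were let into the test by their level in the wild type, so that neither is support for a fall. At the thresholds of the study 0 remained by limma when any 1 replicate was left out, after median-of-ratios scaling, or after quantile normalization. At an adjusted p below 0.05 there were 2 to 4 falls and no rise in the same fits. The summed level of the 10 was 24.4 to 29.4 FPKM in the wild type and 10.9 to 11.9 FPKM in *ssh1*. Of 6 loci of the GH3 type, which join auxin to amino acids and are known as auxin-induced, 4 were tested, with 2 higher, 1 lower, and 1 not called. The fall was lost after median-of-ratios scaling, after quantile normalization, with the replicate number as a block, and in 4 of the 6 fits that left out 1 replicate. In 5 of the 6, and without the filter on low values, 1 rise was lost. The summed level was 37.8 to 45.0 FPKM in the wild type and 57.3 to 69.3 FPKM in *ssh1*.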

How the data were processed

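RNA-seq values of 6 samples were used, 3 per genotype. The authors mapped paired-end reads with TopHat2 at default parameters to the Nipponbare reference (IRGSP-1.0, MSU7 annotation), and the deposited values are FPKM per gene from Cuffdiff, 1 file per replicate, with no further scaling stated. Tool versions are not given in the sources used here. FPKM keeps no read number, so the error of a single low value is unknown and no interval was given.

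Of the locus IDs, 4 that were listed more than once were left out. The test was limma 3.58.1 (R 4.3.3; eBayes allowing a trend of variance with level) on log2(FPKM + 1) of the 18537 genes averaging 1 FPKM or more. Genotype was the sole factor, and p-values were adjusted after Benjamini and Hochberg. The study used Cuffdiff on reads, which was not rerun. At its thresholds it called more genes in each direction than limma did here (591 higher and 356 lower). The counts at these thresholds are therefore not those of the study. The calculation was tested on simulated data in which few genes were changed, all by the same size. Data with 45.0% of genes called and many smaller changes, as here, were not simulated. Relative depth was read from the modal ratio of values below 0.5 FPKM, within a limited range of ratios. Plots were drawn with matplotlib 3.10.9.

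The members and lists were chosen with earlier results of these data known. Genes were named by a rule: in each family, those past the thresholds of the study, the 6 largest rises and 6 largest falls at an adjusted p below 0.05, the 3 highest levels, and the genes on either side of 1 FPKM. Other members singled out were chosen after their values were seen. Alternatives were a pseudocount of 0.1, no filter, a minimum mean of 5 FPKM, median-of-ratios scaling, quantile normalization, robust estimation (statmod 1.5.0), a block for the replicate number, and leaving out single replicates. Sequences, coordinates, and gene names are not used here.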

Additional observations from a re-analysis of the deposited data

How the results depend on the processing

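Counted over both directions, the calls at an adjusted p below 0.05 stayed within 1.5 times of the 15 ARF and 16 Aux/IAA genes under every alternative tried, and ranged from 12 to 15 for either family when 1 replicate was left out. By direction they moved more, with 3 to 5 Aux/IAA rises against 6 when 1 replicate was left out and 3 ARF rises against 1 after median-of-ratios scaling. The shares of all tested genes moved too. With 1 replicate left out, 12.3% to 17% were higher and 17.7% to 27.6% lower, and after that scaling 21.7% and 19.2%. The counts at the thresholds of the study were less stable. Against 3 ARF genes and 1 Aux/IAA gene there were 0 and 0 once the replicate number was made a block, where 16 ARF and 16 Aux/IAA genes had an unadjusted p below 0.05 in limma, and 0 to 3 and 0 to 1 when 1 replicate was left out (15 to 19 and 16 to 17 at an unadjusted p below 0.05). The Aux/IAA count was 3 with a minimum mean of 5 FPKM and 3 after quantile normalization. With a pseudocount of 0.1 the ARF count was 4. The median log2 fold change of the ARF genes was -0.19 after median-of-ratios scaling and -0.41 to -0.32 when 1 replicate was left out. That of the Aux/IAA genes was -0.060 with no filter on low values, -0.65 with a minimum mean of 5 FPKM, which leaves 15 genes and beside which the median of all genes was -0.12, -0.036 after median-of-ratios scaling, -0.052 after quantile normalization, and -0.29 to -0.044 when 1 replicate was left out. Of 318 comparisons of single named genes, 294 kept their direction and their side of the limit, 21 lost the call, and 3 reversed, none of them a called gene: LOC_Os02g49160 at -0.083 without wild-type replicate 1 and -0.053 without wild-type replicate 2 (up to 0.33 when another was left out), and LOC_Os11g32110 at 0.034 after median-of-ratios scaling. Beyond what the lower residual degrees of freedom and the changed gene sets bring by construction, the cause was not tested.

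The replicate numbers are shared between the genotypes by label only, and the deviations of same-numbered replicates from their group means correlated at -0.10, -0.07, and -0.17. When the number was made a block, 12 ARF genes (1 higher, 11 lower) and 12 Aux/IAA genes (3 higher, 9 lower) had an adjusted p below 0.05, without LOC_Os01g48060, LOC_Os02g35140, LOC_Os12g29520, LOC_Os02g57250, LOC_Os01g09450, LOC_Os07g08460, and LOC_Os09g35870 (adjusted p = 0.0527 for the last). With that block 18.6% of all tested genes were lower and 13.2% higher, so that the Aux/IAA rises were near the share of all genes. No *ssh1* replicate correlated best with its own number. Without read numbers, the error of low values such as those of LOC_Os02g49160 and LOC_Os02g56120 in the wild type is unknown.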
